A study of Arabidopsis thaliana with 72 samples.

Results

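The genes described here are 10 Arabidopsis thaliana genes of alternative respiration and mitochondrial stress signalling, taken by locus identifier from a deposited table of 22122 loci. All 10 were in the table. They were 3 alternative oxidases (AOX1A, AT3G22370, AOX1C, AT3G27620, and AOX1D, AT1G32350), 3 alternative NAD(P)H dehydrogenases (NDA1, AT1G07180, NDA2, AT2G29990, and NDB2, AT4G05020), UPOX (AT2G21640), OM66 (AT3G50930) and the NAC factors ANAC013 (AT1G32870) and ANAC017 (AT1G34190). Their choice used no measured value of the comparisons below, but it was made with earlier results of these data known.

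Plant mitochondria carry, beside the cytochrome pathway, a branch that passes electrons without pumping protons. Alternative NAD(P)H dehydrogenases feed electrons to ubiquinone, and alternative oxidases hand them from ubiquinol to oxygen. When the electron transport chain is inhibited, a signal from the mitochondrion to the nucleus, called retrograde signalling, raises AOX1A and a set of other nuclear genes. In Arabidopsis the factors ANAC013 and ANAC017, anchored in the endoplasmic reticulum, act in that signal, and ANAC013 binds a sequence called the mitochondrial dysfunction motif in front of several of these genes.

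RNA was sequenced from roots and shoots of seedlings grown on agar for 14 days. Citral, a volatile plant product made of the 2 aldehyde isomers geranial and neral, was given at 202 µM and the plants were sampled 1, 3, 6, 12 and 24 h later, with plants given 0.1% ethanol at the same times. Ethanol plants and untreated plants were also taken at 0 h, which made 24 groups of 3 libraries and 72 libraries in all. The series design and the agent labels name citral, whereas the treatment protocol attached to the samples names t-chalcone at 21 µM, and the sources used here do not settle this. Nothing states that the 3 libraries of a group came from separate plates, so the p-values measure the spread between libraries, which may be technical.

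Values are given in CPM, which is reads recovered from the deposited values per M reads of the library. Citral libraries (30 in all) had between 1.58 and 3.62 M such reads, with a median of 3.43, against a median of 11.4 M in the 42 control libraries, so depth went with the treatment. In 4 ethanol libraries there were fewer than 0.5 M reads: root 0 h replicate 1 with 0.255 M, root 3 h replicate 1 with 0.179 M, shoot 12 h replicate 2 with 0.326 M and shoot 24 h replicate 3 with 0.362 M. Shoot 12 h replicate 2 stood apart beyond its depth, with 73.9% of its values at the floor of the table. The others had 40.6%, 46.2% and 34.8%, in the order given. These 4 are left out of every mean ± SD and, unless named, of every list of values, so that their groups have n = 2, and they entered the tests with the weights that the fit gave them. Changes are log2 differences ± SE from limma on all loci, after scaling for composition, with Benjamini-Hochberg adjustment over all loci tested and a threshold of 0.05, so that they need not equal the ratio of mean CPM.

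Photosynthetic and root marker genes stood with the organ labels. The 6 shoot markers summed to 155 to 610.2 CPM over root libraries, against 7790 to 50458 CPM over shoot libraries. The 6 root markers summed to 179 to 556 CPM over root libraries, against 1.28 to 19.6 CPM over shoot libraries. Within roots, 5 of the 6 root markers were lower in citral than in ethanol at every time, with medians of -4.38 to -2.17 on the log2 scale, and the other one was higher at 3, 12 and 24 h. Within shoots 5 of the 6 shoot markers were lower at 1 h (median -0.72), 5 at 3 h (-0.62), 6 at 6 h (-2.10), 1 at 12 h (-0.05) and 2 at 24 h (-0.10). Fewer cells of a type and less RNA per cell cannot be told apart in such libraries, and the part of these shifts in the results below was not tested.

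Circadian genes did not follow the time labels at 3, 12 and 24 h. LHY, a morning clock gene, averaged 6.50 ± 1.68 CPM in citral roots at 12 h (SD, n = 3), against 112 ± 1.01 CPM in ethanol roots (n = 3). In shoots LHY averaged 46.2 ± 9.01 CPM in citral plants at 12 h (n = 3), against 692 ± 64.1 CPM in ethanol plants (n = 2), and 47.4 ± 1.32 CPM in citral plants at 24 h (n = 3), against 407 ± 16.2 CPM in ethanol plants (n = 2). Over 16 clock genes the root mean square log2 distance of ethanol shoots at 24 h was 0.64 to ethanol shoots at 12 h. The distance was 2.40 to ethanol shoots at 0 h and 1.48 to untreated shoots at 0 h, both sampled 24 h apart from them by their labels. In ethanol roots at 24 h these distances were 0.54, 1.98 and 1.37. The clock genes of citral shoots at 12 h lay 0.61 from untreated shoots at 0 h and 1.97 from their own ethanol controls, and those of citral roots at 12 h lay 0.54 from ethanol roots at 3 h and 2.16 from their own controls. At 24 h citral shoots lay 0.54 from ethanol shoots at 3 h and 2.38 from their own controls, and citral roots lay 0.53 from ethanol roots at 3 h and 2.32 from their own. At 3 h citral shoots lay 1.91 from their own controls and 1.02 from ethanol shoots at 6 h, and 7 of the 16 clock genes were called higher and 7 lower. Citral roots at 3 h lay 0.96 from their own controls and 0.66 from ethanol roots at 1 h. At 1 and 6 h the nearest control group by clock genes was the matching ethanol group in both organs, at 0.83 and 1.25 in shoots and 0.73 and 0.48 in roots. Clock genes were called at 1 and 6 h too. In shoots 2 of 16 were higher and 5 lower at 1 h (12.5% and 7.84% of all loci), and 2 and 9 at 6 h (21.7% and 19.9%). In roots 6 were higher and 3 lower at 1 h (21.7% and 21.6%), and 8 and 1 at 6 h (22.6% and 25.9%). At 3, 12 and 24 h the clock genes of citral plants thus lay nearer to another control group than to their own. The part of clock differences at any time in the results was not tested.

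The mitochondrial dysfunction motif was searched in the 300 bases before and 50 bases after each annotated gene start, as CTTG, 5 bases of any kind and CAAG, a pattern that is the same on both strands, and as CTTG, 5 bases of any kind and CACG on both strands. The forms differ at the 12th base, so no stretch of 13 bases matches both. The first form was found in 4 of 10 members and in 1.02% of 27444 protein-coding genes, and the second in 2 of 10 members and in 0.594% of genes. At least 1 form was present in 5 of 10 members, against 1.60% of all genes. The motif was already known in front of several such genes, so this share is not independent of the choice of members. The 30 bases around each match are printed below on the gene's strand, with the 13 bases of the motif in capitals, because 5 of the 10 members hold a match. Coordinates are those of the TAIR10.1 RefSeq annotation. Positions within a gene count its first annotated base as 1, so the first AOX1A match starts at base 25 of the gene.
AOX1A, 25 bases after the gene start, chr3:7906537-7906566 on the plus strand: tcttccatCTTGCTCTCCAAGaaaaatcta
AOX1A, second form from base -3, chr3:7906510-7906539 on the plus strand: atctagctCTTGGCGACCACGcaagtatct
NDA1, from base -70, chr1:2204026-2204055 on the plus strand: tgtcgtttCTTGCGCATCAAGttctgctga
NDB2, from base -79, chr4:2572340-2572369 on the plus strand: cgatctggCTTGGCCACCAAGattgtttga
UPOX, from base -51, chr2:9254319-9254348 on the plus strand: tttagtaaCTTGCTCTCCAAGgagatctag
ANAC017, second form on the opposite strand, from base -110, chr1:12451287-12451316: acctctgtCGTGTCAGACAAGaatgttgga
AOX1A and UPOX carried the same 13 bases, CTTGCTCTCCAAG. No match was found in these windows of AOX1C, AOX1D, NDA2, OM66 and ANAC013. A match is a description of the letters and not a shown binding site.

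The 250 bases that end at the base before the gene start are printed for UPOX and NDA1, the members with the largest changes in citral roots, with the motif in capitals. No other annotated gene reached into these windows.
UPOX, chr2:9254128-9254377, plus strand: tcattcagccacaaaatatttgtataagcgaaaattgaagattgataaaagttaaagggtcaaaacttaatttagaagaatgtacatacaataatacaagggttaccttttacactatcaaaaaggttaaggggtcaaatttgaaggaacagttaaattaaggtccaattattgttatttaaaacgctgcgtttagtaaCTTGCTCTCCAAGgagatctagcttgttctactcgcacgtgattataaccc
NDA1, chr1:2203854-2204103, plus strand: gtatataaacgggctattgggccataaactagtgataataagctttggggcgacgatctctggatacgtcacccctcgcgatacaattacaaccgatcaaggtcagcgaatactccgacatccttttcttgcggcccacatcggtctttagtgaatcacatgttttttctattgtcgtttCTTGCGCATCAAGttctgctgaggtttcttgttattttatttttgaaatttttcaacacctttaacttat

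Before any treatment most members were higher in roots than in shoots, and NDA1 was far lower there. AOX1A (chromosome 3, 7906521 to 7908746) had 79.4, 106 and 96.2 CPM in untreated roots and 24.3, 29.5 and 32.2 CPM in untreated shoots. NDB2 (chromosome 4, 2572427 to 2576599) had 101, 145 and 118 CPM in roots and 9.57, 12.0 and 11.5 CPM in shoots. NDA1 (chromosome 1, 2204104 to 2207099) went the other way, with 1.08, 1.90 and 1.39 CPM in roots and 98.8, 112 and 107 CPM in shoots. None of these 3 sets of values overlapped between organs.

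By limma, 7 of the 9 members tested were higher in untreated roots than in untreated shoots and 1 was lower, in a comparison in which 41.7% of all loci tested were higher and 35.8% lower, 77.4% together. The differences were 1.15 ± 0.17 for AOX1A, 3.28 ± 0.81 for AOX1D, 2.89 ± 0.15 for NDB2, 2.08 ± 0.38 for UPOX, 2.24 ± 0.47 for OM66, 1.66 ± 0.22 for ANAC013 and 0.42 ± 0.08 for ANAC017, all on the log2 scale. The ANAC017 call was lost under limma-trend, a fit without weights, on log2(CPM + 0.5) and on log2(CPM + 0.1) (limma adjusted p = 0.246 and 0.244). NDA1 differed by -6.73 ± 0.35 (limma adjusted p = 5.62e-25). NDA2 had 15.3 ± 2.08 CPM in roots and 11.5 ± 0.81 CPM in shoots (SD, n = 3 each), and its difference of -0.13 ± 0.14 did not pass (limma adjusted p = 0.385). Scaling decided its direction, since with total reads and no composition factor the median of all loci moved to 0.61 and NDA2 was at 0.39 (limma adjusted p = 0.00661).

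Levels of different genes are compared per length, as CPM per kb of annotated exon. In untreated roots AOX1A (53.1 ± 7.51) and NDB2 (47.3 ± 8.58) were highest and overlapped, followed by ANAC017 (32.8 ± 0.59), UPOX (18.4 ± 4.15), ANAC013 (12.9 ± 2.89), OM66 (11.7 ± 0.68), NDA2 (7.87 ± 1.07), AOX1D (1.89 ± 0.21) and NDA1 (0.671 ± 0.190), each SD with n = 3. UPOX overlapped ANAC013 and ANAC013 overlapped OM66, while ANAC017 lay above UPOX and OM66 above NDA2 without overlap. In untreated shoots NDA1 (48.8 ± 3.11 CPM per kb) was highest, ANAC017 (17.1 ± 1.14) and AOX1A (16.3 ± 2.28) overlapped, and NDA2 (5.94 ± 0.42) and NDB2 (4.31 ± 0.50) followed. UPOX (2.91 ± 0.31), ANAC013 (2.81 ± 0.32) and OM66 (1.60 ± 0.48) came next, the first 2 of them overlapping, and AOX1D (0.119 ± 0.142) was near the floor. AOX1C was last in both organs.

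After citral the 9 members tested were higher in 34 of 45 tests in roots and lower in 0, and higher in 22 of 45 tests in shoots and lower in 2. In roots 8 of 9 members rose at 1 h, where 21.7% of 20167 loci were called higher, 7 rose at 3 h (20.9% of all loci), 8 at 6 h (22.6%), 7 at 12 h (17.3%) and 4 at 24 h (19.6%). In shoots 3 of 9 rose at 1 h, where 12.5% of 19545 loci were called higher, 8 rose at 3 h (23.7%), 6 at 6 h (21.7%), 2 at 12 h (18.8%) and 3 at 24 h (16.2%). NDA1 was the member that fell, in shoots at 12 and 24 h, where 19.2% and 17.3% of all loci were called lower. At 1, 3 and 6 h in shoots 0 members fell, beside 7.84%, 26.6% and 19.9% of all loci, and in roots 0 fell at any of the 5 times, beside 21.6%, 26.3%, 25.9%, 18.8% and 19.1%. In either direction 43.3%, 47.2%, 48.5%, 36.1% and 38.6% of all loci were called over the 5 times in roots, and 20.4%, 50.3%, 41.6%, 38% and 33.6% in shoots. The median change of the members tested was 2.37, 2.30, 1.94, 1.07 and 0.36 over the 5 times in roots and 0.13, 2.33, 2.73, 0.33 and 0.77 in shoots, while the median of all loci stayed between -0.13 and 0.01. The count of 2 of 9 at 12 h in shoots lies near the share of all loci. That of 3 of 9 at 24 h lies above it, but the calls of NDA2 and ANAC013 there were lost when single libraries were left out. For citral, rose and fell mean higher and lower than in ethanol plants of the same time, not than in plants at 0 h. Changes were not tested between times.

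**Figure D1:**
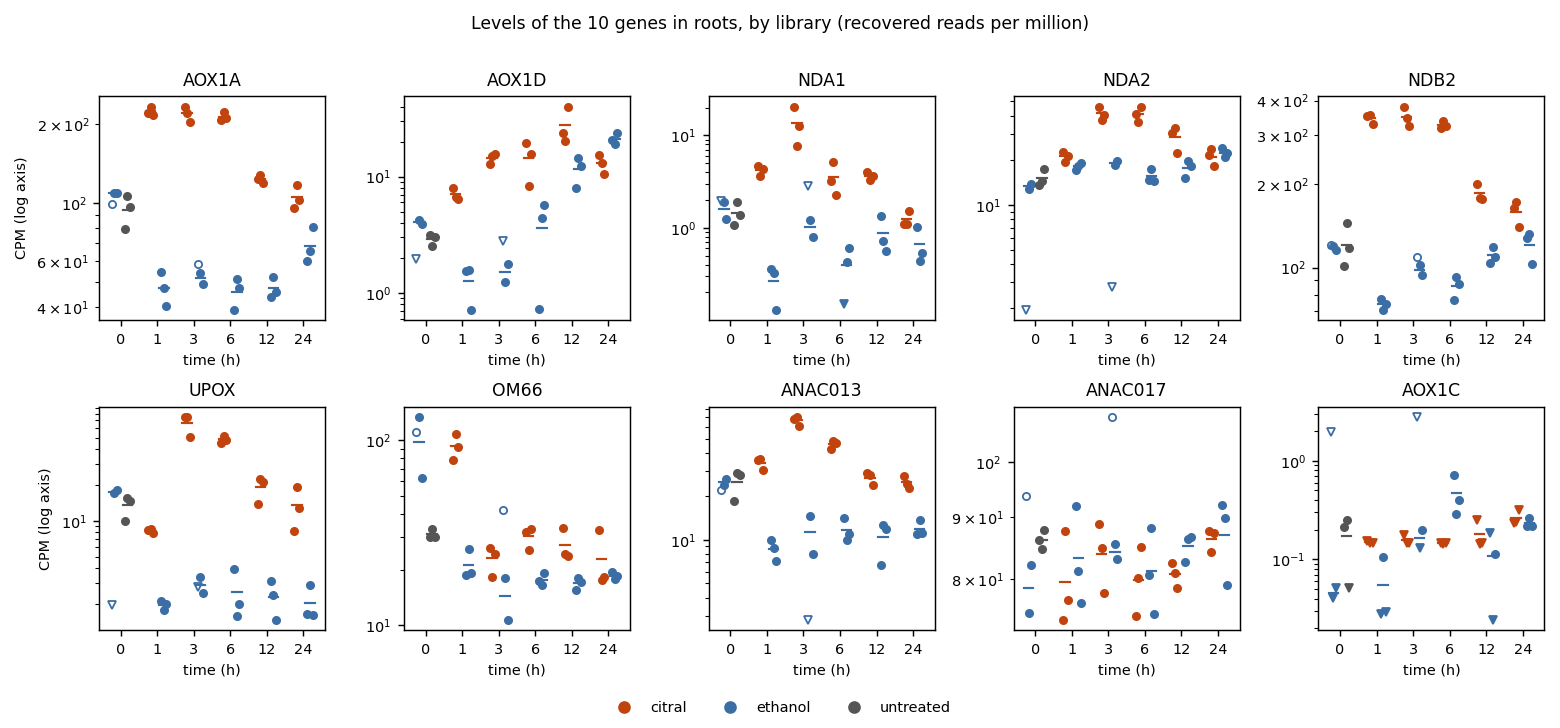
Levels in roots of the 10 genes in CPM (log axis) against time, by library, with citral left of ethanol at each time and, at 0 h, ethanol left of untreated. Filled points are libraries, open points libraries under 0.5 M reads, triangles values at the floor of the table, and bars means without the open points. AOX1A sits between 205 and 234 CPM in citral roots from 1 to 6 h, above all ethanol values of those times.

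AOX1A, the alternative oxidase most used as a marker of mitochondrial retrograde signalling, was higher in citral at every time in both organs, with no overlap. In roots at 1 h it had 222, 234 and 218 CPM with citral, against 54.5, 47.4 and 40.2 CPM with ethanol, and at 6 h 208, 223 and 212 CPM against 39.0, 51.1 and 47.1 CPM. By 24 h citral roots held 95.7, 117 and 103 CPM, against 60.0, 65.4 and 80.8 CPM in ethanol roots. At 0 h untreated roots averaged 93.7 CPM and ethanol roots 109 CPM, above ethanol roots at 1 h, and citral roots at 24 h overlapped untreated roots. The change in roots was 2.44 ± 0.08 at 1 h (limma adjusted p = 4.57e-25), 2.30 ± 0.14 at 3 h, 2.21 ± 0.09 at 6 h, 1.35 ± 0.10 at 12 h and 0.80 ± 0.10 at 24 h (limma adjusted p = 2.19e-08).

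In shoots AOX1A had 114, 96.0 and 86.3 CPM with citral at 1 h, against 28.6, 30.8 and 20.2 CPM with ethanol. At 3 h citral shoots held 289, 198 and 270.3 CPM, against 31.5, 33.0 and 28.9 CPM in ethanol shoots. The citral libraries at 6 h were more spread, at 347, 202 and 169 CPM, against 24.0, 46.4 and 32.0 CPM. The lowest citral library of these times thus lay above the highest ethanol library. Its change was 2.0 ± 0.26 at 1 h, 3.13 ± 0.22 at 3 h (limma adjusted p = 2.27e-12), 2.73 ± 0.25 at 6 h, 1.17 ± 0.25 at 12 h and 2.69 ± 0.33 at 24 h (limma adjusted p = 2.61e-07). At 12 h the 2 deep ethanol libraries had 23.6 and 39.2 CPM, against 49.2, 74.8 and 78.7 CPM with citral, and without ethanol replicate 1 or 3, which leaves the shallow library and 1 other, the call was lost (limma adjusted p = 0.91 and 0.893).

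AOX1D, an alternative oxidase known to be induced in AOX1A mutants and by several stresses, was a low transcript. Citral roots at 3 h had 12.8, 15.0 and 15.6 CPM, against 1.23 and 1.77 CPM in ethanol roots, a change of 3.29 ± 0.60 (limma adjusted p = 3.11e-05). It rose at 1, 6 and 12 h too, by 2.49 ± 0.38, 1.87 ± 0.34 and 1.07 ± 0.21, the last of which was lost under limma-trend on log2(CPM + 0.1) (limma adjusted p = 0.0566). Ethanol roots themselves averaged 1.27 ± 0.48 CPM at 1 h (SD, n = 3), 3.62 ± 2.59 at 6 h, 11.5 ± 3.23 at 12 h and 21.2 ± 2.38 at 24 h. At 24 h citral roots, with 15.2, 13.2 and 10.6 CPM, were below ethanol roots, with 20.7, 19.1 and 23.8 CPM, without overlap, and the change of -0.54 ± 0.27 did not pass (limma adjusted p = 0.115).

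In shoots AOX1D rested on few reads and varied between libraries. At 3 h it had 11.4, 2.02 and 3.91 CPM with citral, against 1.68, 1.78 and 1.23 CPM with ethanol, a change of 1.82 ± 0.55 (limma adjusted p = 0.00679) that was lost without citral replicate 1 (1.02, limma adjusted p = 0.252) and under both limma-trend settings (0.163 and 0.251). At 6 h, 4.53, 11.7 and 3.07 CPM with citral stood against 0.469, 2.80 and 0.282 CPM with ethanol, a change of 3.13 ± 0.82 (limma adjusted p = 0.00302). The changes of -0.27 ± 0.85 at 1 h, 1.45 ± 0.73 at 12 h and 1.92 ± 0.97 at 24 h did not pass.

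AOX1C, known for expression that follows development, was at the floor of the table in 52 of 72 libraries. Its highest value above the floor in the 68 deeper libraries was 0.723 CPM, in an ethanol root library at 6 h. It did not pass the filter of 1 CPM in at least 3 libraries and was not tested, so a change was not detectable at this depth. A floor value counts as 0.5 read and so as more CPM in the shallower citral libraries, where AOX1C was at the floor in all but 1 of 30 libraries. Coding sequences of AOX1A and AOX1C are 81.1% identical over 961 aligned bases with a longest identical run of 34 bases, and whether reads were shared between such copies is not given in the sources used here.

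NDA1 and NDA2 are NAD(P)H dehydrogenases on the inner side of the inner mitochondrial membrane, and NDA1 is known to follow light and time of day in leaves. In roots NDA1 was scarce in ethanol plants. At 1 h it had 4.62, 3.64 and 4.30 CPM with citral, against 0.356, 0.322 and 0.13 CPM with ethanol, and at 3 h 20.5, 7.66 and 12.6 CPM against 1.23 and 0.787 CPM. Citral and ethanol roots did not overlap at any of the 5 times. The changes were 3.94 ± 0.44 at 1 h (limma adjusted p = 9.27e-10), 3.56 ± 0.48 at 3 h, 2.80 ± 0.53 at 6 h and 2.38 ± 0.39 at 12 h, and 1.02 ± 0.53 at 24 h did not pass (limma adjusted p = 0.122). These folds rest on few reads, with 2.22 to 6.52 in the ethanol root libraries and 12.3 to 15.2 in the citral root libraries at 1 h. At 0 h NDA1 averaged 1.45 CPM in untreated roots and 1.58 CPM in ethanol roots, above the 0.269 CPM of ethanol roots at 1 h. Citral roots averaged 4.19 CPM at 1 h and 1.24 CPM at 24 h, the latter not above those 0 h means.

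In shoots the change of NDA1 had no constant direction. Ethanol shoots averaged 15.6 ± 2.63 CPM at 1 h (SD, n = 3), 61.4 ± 11.3 at 3 h, 14.0 ± 7.64 at 6 h, 202 ± 1.94 at 12 h (n = 2) and 199 ± 18.9 at 24 h (n = 2). With citral NDA1 had 104, 90.6 and 111 CPM at 3 h, against 74.3, 57 and 53.1 CPM with ethanol, a change of 0.89 ± 0.21 (limma adjusted p = 7.31e-04) that was lost without library weights (0.86, limma adjusted p = 0.0847) and under both limma-trend settings (0.14 and 0.143). The change of 0.75 ± 0.33 at 6 h did not pass, but did without ethanol replicate 2 (limma adjusted p = 0.00759) or citral replicate 2 (0.0363). At 12 h citral shoots had 90.9, 93.6 and 142 CPM, against 201 and 203 CPM in ethanol shoots, and at 24 h 95.0, 86.9 and 135 CPM against 186 and 213 CPM. It fell by 0.96 ± 0.22 at 12 h and by 1.13 ± 0.24 at 24 h on the log2 scale (limma adjusted p = 0.00103 and 5.47e-04). Citral shoots at these times averaged 109 ± 28.9 and 106 ± 26.0 CPM (n = 3 each). The controls nearest by clock genes held 106 ± 6.74 CPM for citral shoots at 12 h (untreated shoots at 0 h) and 61.4 ± 11.3 CPM for citral shoots at 24 h (ethanol shoots at 3 h). The part of the clock genes in the NDA1 result was not tested. The call at 12 h was lost without ethanol replicate 1 (limma adjusted p = 0.0717) or 3 (0.078), and that at 24 h under limma-trend on log2(CPM + 0.1) (0.0544).

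NDA2 rose at 4 times in roots and at all 5 in shoots. In roots it had 46.1, 37.4 and 40.6 CPM with citral at 3 h, against 18.7 and 19.8 CPM with ethanol, and the change was 1.37 ± 0.22 at 3 h (limma adjusted p = 2.08e-06), 1.42 ± 0.13 at 6 h and 0.59 ± 0.14 at 12 h. The root call at 12 h was lost under both limma-trend settings (limma adjusted p = 0.394 and 0.429), as was that at 1 h (0.649 and 0.667). The root change of 0.40 ± 0.15 at 1 h passed (limma adjusted p = 0.0293) but was lost when any of the 3 ethanol libraries, citral replicate 1 or citral replicate 3 was left out (limma adjusted p between 0.0612 and 0.138). In shoots NDA2 had 36.4, 38.1 and 42.3 CPM with citral at 3 h, against 8.19, 7.73 and 9.57 CPM with ethanol, a change of 2.33 ± 0.15 (limma adjusted p = 8.88e-15). It rose in shoots at every time, by 1.03 ± 0.20, 1.47 ± 0.19, 1.74 ± 0.18 and 0.82 ± 0.26 at 1, 6, 12 and 24 h. The shoot call at 12 h was lost without ethanol replicate 1 (limma adjusted p = 0.882) or 3 (0.907), and that at 24 h without ethanol replicate 1 (0.278) or 2 (0.0804) or citral replicate 1 (0.113) or 2 (0.45). Coding sequences of NDA1 and NDA2 are 81.1% identical with a longest identical run of 32 bases.

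NDB2, an NADH dehydrogenase on the outer side of the inner membrane that is known to be co-expressed with AOX1A, stood beside AOX1A at the top of the members per length in untreated roots. At 1 h it had 351, 355 and 329 CPM with citral, against 77.0, 70.5 and 74.2 CPM with ethanol, and at 24 h 164, 172 and 140.5 CPM against 128, 132 and 103 CPM. In roots it rose at every time, by 2.45 ± 0.08 at 1 h (limma adjusted p = 7.80e-26), 2.04 ± 0.12 at 3 h, 1.94 ± 0.09 at 6 h, 0.72 ± 0.09 at 12 h and 0.36 ± 0.09 at 24 h. In shoots NDB2 had 132, 83.3 and 141 CPM with citral at 3 h, against 9.62, 12.2 and 13.1 CPM with ethanol. Its shoot changes of 2.27 ± 0.21 at 1 h, 3.46 ± 0.18 at 3 h (limma adjusted p = 1.33e-16) and 3.32 ± 0.22 at 6 h passed, and those of 0.33 ± 0.21 at 12 h and 0.48 ± 0.25 at 24 h did not, although at 12 h it passed without citral replicate 1 (0.54, limma adjusted p = 0.0418). Ethanol shoots held 19.4 and 22.6 CPM at 12 h and 27.9 and 29.0 CPM at 24 h, above the 7.15 to 8.56 CPM of ethanol shoots at 6 h.

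**Figure D2:**
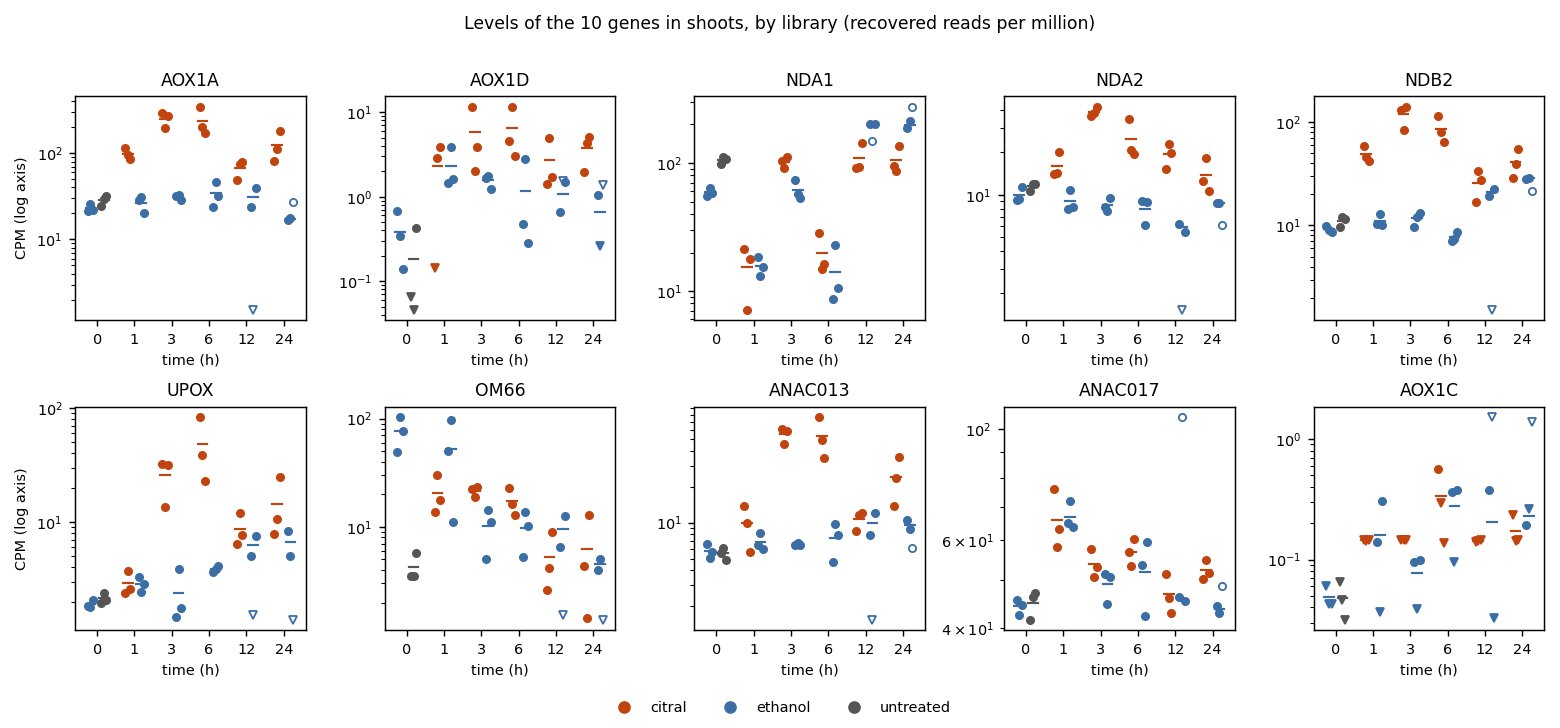
Levels in shoots of the 10 genes in CPM (log axis) against time, drawn as for roots with citral left of ethanol. NDB2 in citral shoots reached 132, 83.3 and 141 CPM at 3 h, and NDA1 in ethanol shoots lay near 200 CPM at 12 and 24 h, above citral shoots.

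UPOX, annotated as a marker for oxidative stress response and known in Arabidopsis as a mitochondrial protein gene raised by oxidative stress, had the largest change of the members in roots at 3, 6, 12 and 24 h, though not at 1 h. At 3 h it had 75.3, 74.8 and 50.6 CPM with citral, against 3.37 and 2.46 CPM with ethanol, and at 6 h 45.6, 52.2 and 48.0 CPM against 3.98, 1.58 and 2.0 CPM. The groups were separate at all 5 times in roots. UPOX rose there by 2.37 ± 0.33 at 1 h, 4.64 ± 0.45 at 3 h (limma adjusted p = 2.21e-10), 4.71 ± 0.34 at 6 h (1.12e-13), 3.23 ± 0.30 at 12 h and 2.67 ± 0.32 at 24 h. Untreated roots at 0 h held 10, 15.7 and 14.8 CPM, more than the ethanol roots of any later time, which ran from 1.47 to 3.98 CPM, so the level in citral roots at 24 h (8.16, 19.3 and 12.9 CPM) overlapped that of untreated roots. Citral roots at 1 h averaged 8.27 CPM, below the 0 h means of 13.5 CPM in untreated and 17.6 CPM in ethanol roots.

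In shoots UPOX had 32.0, 13.6 and 31.6 CPM with citral at 3 h, against 1.48, 3.90 and 1.77 CPM with ethanol. At 6 h the 3 citral libraries ran over a wide range, 83.9, 38.9 and 22.9 CPM, against 3.65, 3.85 and 4.14 CPM. Both changes passed, at 3.54 ± 0.38 (limma adjusted p = 1.25e-08) and 3.24 ± 0.40 (1.67e-07), while 0.13 ± 0.73 at 1 h, 0.56 ± 0.43 at 12 h and 0.77 ± 0.58 at 24 h did not.

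OM66, an AAA-type ATPase of the outer mitochondrial membrane annotated as BCS1 and known to respond to salicylic acid, pathogens and mitochondrial inhibition, rose at 1 and 6 h in roots and passed at no time in shoots. In roots it had 78.6, 108 and 92.2 CPM with citral at 1 h, against 18.7, 26.0 and 19.2 CPM with ethanol, a change of 2.13 ± 0.18 (limma adjusted p = 1.48e-10). At 0 h OM66 averaged 98.1 CPM in ethanol roots and 31 CPM in untreated roots, beside 93 CPM in citral roots at 1 h. The root change of 0.88 ± 0.29 at 6 h also passed (limma adjusted p = 0.013), with 32.1, 25.4 and 33.3 CPM against 17.4, 16.6 and 19.2 CPM. That call was lost without ethanol replicate 2 (limma adjusted p = 0.108) or 3 (0.053) or citral replicate 1 (0.0601) or 3 (0.0852). The changes of 0.91 ± 0.41 at 3 h, 0.60 ± 0.28 at 12 h and 0.31 ± 0.32 at 24 h did not pass, although at 3 h the change passed, at 1.07, without the shallow ethanol library, replicate 1 (limma adjusted p = 0.0386).

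In shoots at 1 h OM66 had 13.8, 30.4 and 17.8 CPM with citral, against 49.9, 97.7 and 11.1 CPM with ethanol, so that 1 ethanol library lay below every citral library and the others above. The change was -1.05 ± 0.59 (limma adjusted p = 0.233), and -1.73 without that library, ethanol replicate 3 (limma adjusted p = 0.0112). At 3 h citral shoots, with 22.3, 18.7 and 23.2 CPM, were above ethanol shoots, with 5.03, 14.4 and 11 CPM, and the change of 1.2 ± 0.53 did not pass (limma adjusted p = 0.0603). It passed without ethanol replicate 2 (1.65, limma adjusted p = 0.03) or 3 (1.53, 0.036).

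OM66 was also higher in ethanol than in untreated plants at 0 h, in both organs. In roots it had 134 and 62.4 CPM in ethanol plants at 0 h, against 30.1, 33.1 and 29.9 CPM in untreated plants, a change of 1.69 ± 0.20 (limma adjusted p = 1.08e-07). In shoots it had 48.6, 104 and 77.1 CPM in ethanol plants, against 3.50, 3.51 and 5.71 CPM in untreated plants, a change of 3.93 ± 0.53 (limma adjusted p = 7.50e-06). Ethanol shoots averaged 52.9 ± 43.4 CPM at 1 h (SD, n = 3) and 10.1 ± 4.75 CPM at 3 h. In roots OM66 and AOX1A were the 2 of 9 members called, both higher, where 14.6% of all loci were higher, and in shoots OM66 rose and NDA1 fell, where 9.31% were higher and 13.2% lower. Lower in roots were 11.5% of all loci, and called in either direction were 26.2% in roots and 22.5% in shoots. NDA1 had 55.2, 63.9 and 57.8 CPM in ethanol shoots at 0 h, against 98.8, 112 and 107 CPM in untreated shoots, a change of -0.91 ± 0.19 (limma adjusted p = 8.91e-04) that was lost without library weights (limma adjusted p = 0.189). AOX1A, with 109 and 109 CPM in ethanol roots and 79.4, 106 and 96.2 CPM in untreated roots, changed by 0.32 ± 0.10 (limma adjusted p = 0.0128), a call lost without untreated replicate 1 (0.2) or ethanol replicate 2 (0.393) or 3 (0.383). Over the clock genes ethanol and untreated plants at 0 h were 0.78 apart in roots and 0.97 apart in shoots.

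ANAC013, the factor known to bind the motif printed above, was itself higher in citral than in ethanol plants in both organs. In roots it had 68.4, 70.7 and 60.8 CPM with citral at 3 h, against 14.7 and 7.97 CPM with ethanol. It was higher than in ethanol roots at every time, by 2.15 ± 0.16 at 1 h (limma adjusted p = 5.34e-14), 2.86 ± 0.28 at 3 h, 2.15 ± 0.18 at 6 h, 1.18 ± 0.18 at 12 h and 1.12 ± 0.19 at 24 h. Untreated and ethanol roots at 0 h both averaged 25.2 CPM, above the 8.68 CPM of ethanol roots at 1 h. In citral roots ANAC013 averaged 26.8 CPM at 12 h and 24.9 CPM at 24 h, near that 0 h level. In shoots it had 60.8, 45.4 and 58.2 CPM with citral at 3 h, against 6.51, 6.68 and 6.53 CPM with ethanol. The shoot changes of 3.18 ± 0.21 at 3 h (limma adjusted p = 1.56e-13) and 2.79 ± 0.26 at 6 h passed, those of 0.56 ± 0.35 at 1 h and 0.18 ± 0.30 at 12 h did not, and that of 1.2 ± 0.35 at 24 h passed (limma adjusted p = 0.00877). The 24 h call was lost without ethanol replicate 1 (limma adjusted p = 0.188) or 2 (0.0804) or citral replicate 2 (0.0509). The gene overlaps AT1G32880 on the opposite strand by 20 bases, and the use of strand in counting is not given in the sources used here.

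ANAC017, the regulator of AOX1A known to be released from the membrane by cleavage, had 1 call in 10 comparisons. In citral roots it lay between 74.0 and 88.9 CPM over all 5 times, against 74.8 to 92.1 CPM in ethanol roots. In citral shoots it lay between 42.9 and 75.9 CPM, against 42.2 to 71.7 CPM in ethanol shoots. Within a time the groups did not overlap in roots at 12 h (80.7 ± 1.94 CPM with citral and 85.2 ± 2.24 CPM with ethanol, SD, n = 3 each) and in shoots at 24 h (52.2 ± 2.30 CPM with citral, n = 3, and 43.6 ± 1.03 CPM with ethanol, n = 2), and neither change passed (limma adjusted p = 0.507 and 0.114). Its changes ran from -0.07 ± 0.08 to 0.20 ± 0.10 in roots, none of which passed. In shoots 0.29 ± 0.10 at 3 h passed (limma adjusted p = 0.0174), with 57.7, 50.5 and 53.0 CPM with citral and 51.4, 44.6 and 50.7 CPM with ethanol, which overlapped. That call was lost without ethanol replicate 2 (0.157) or 3 (0.0524) or citral replicate 1 (0.121) and with the authors' own factors (0.272), total reads (0.127) and quantile normalization (0.123). At 12 h in shoots the change near 0 became -2.98 without ethanol replicate 1 or 3, when the shallow library with 106 CPM made up 1 of 2 controls. Coding sequences of ANAC017 and its neighbour ANAC016 are 83.1% identical with a longest identical run of 44 bases.

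**Figure D3:**
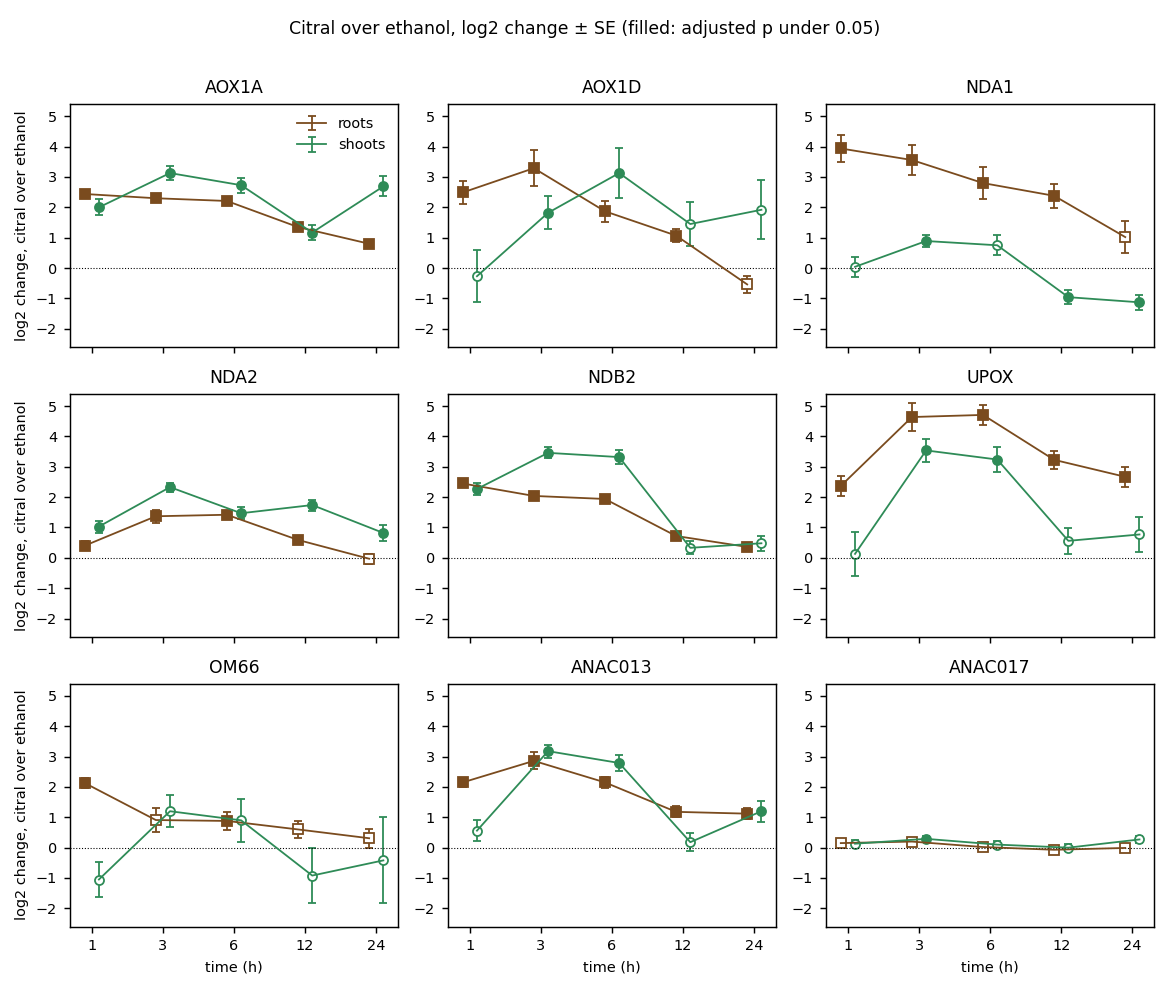
Log2 change of citral over ethanol ± SE for the 9 members tested, against time, in roots (squares) and shoots (circles), with filled symbols where the limma adjusted p was under 0.05. UPOX in roots reached 4.71 at 6 h, NDA1 was at 3.94 in roots and 0.04 in shoots at 1 h, and ANAC017 stayed between -0.07 and 0.29.

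The responses of roots and shoots were set against each other by an F test over the 5 times, in which 63.1% of all loci were called. It was passed by 8 of the 9 members tested, ANAC017 being the exception (limma adjusted p = 0.445). The NDA2 call was lost under both limma-trend settings (limma adjusted p = 0.324 and 0.361). At 1 h 5 members had the larger change in roots, where 7.44% of all loci did, with a root minus shoot difference of 3.91 ± 0.61 for NDA1, 3.22 ± 0.56 for OM66, 2.75 ± 0.91 for AOX1D, 2.24 ± 0.75 for UPOX and 1.59 ± 0.38 for ANAC013. The calls of AOX1D and UPOX were lost when single libraries were left out, as leaving out shoot citral replicate 1 gave 1.54 (limma adjusted p = 0.247) for AOX1D and leaving out root ethanol replicate 2 gave 2.04 (0.132) for UPOX. AOX1A and NDB2 differed by 0.45 ± 0.26 and 0.18 ± 0.22 at 1 h, which did not pass.

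At 3 h 1 member had the larger change in roots (8.88% of all loci) and 3 the smaller (16.9%), at 6 h 2 (12.2%) and 1 (15.8%), at 12 h 3 (10.3%) and 1 (13.5%), and at 24 h 1 (16.7%) and 3 (13.4%). NDB2 had the smaller change in roots at 3 and 6 h, by -1.43 ± 0.22 and -1.32 ± 0.24 (limma adjusted p = 8.75e-07 and 1.75e-05). Its level in citral roots was nonetheless the higher one, at 350.4 ± 29.5 CPM at 3 h, against 119 ± 31.3 CPM in citral shoots (SD, n = 3 each), and ethanol roots held 98.1 ± 6.06 CPM (n = 2), against 11.7 ± 1.81 CPM in ethanol shoots (n = 3). NDA1 had the larger change in roots at each time, by 2.60 ± 0.66, 2.11 ± 0.70, 3.31 ± 0.54 and 2.15 ± 0.66 at 3, 6, 12 and 24 h. NDA2 had the smaller change in roots at 3 h (-0.97 ± 0.25), 12 h (-1.19 ± 0.24) and 24 h (-0.83 ± 0.33).

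UPOX differed by 1.53 ± 0.54 at 6 h and 2.67 ± 0.52 at 12 h, ANAC013 by 0.97 ± 0.35 at 12 h, AOX1D by -2.79 ± 1.02 at 24 h, and AOX1A by -0.85 ± 0.28 at 3 h and -1.89 ± 0.35 at 24 h. Of the calls after 1 h, that of NDB2 at 6 h was kept whichever library was left out. At 3 h leaving out root ethanol replicate 2 ended those of NDB2 (limma adjusted p = 0.0581), AOX1A (0.597), NDA1 (0.427) and NDA2 (0.716). At 12 h leaving out shoot ethanol replicate 1 or 3 ended all 4, and at 24 h leaving out shoot ethanol replicate 1 ended those of AOX1A (0.0691), AOX1D (0.388) and NDA2 (0.293). The NDA1 calls were lost at 6 h without root ethanol replicate 2 (0.11) and at 24 h without root ethanol replicate 1 (0.106) or 2 (0.172), and that of UPOX at 6 h without shoot citral replicate 3 (0.71, limma adjusted p = 0.337). Both limma-trend settings ended the calls of AOX1D and UPOX at 1 h, AOX1A and NDA2 at 3 h, UPOX at 6 h, NDA2 and ANAC013 at 12 h and AOX1D and NDA2 at 24 h (limma adjusted p between 0.0507 and 0.966).

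Other genes of the same pathways were counted from lists of published roles. These lists were chosen with earlier results of these data known, so their counts are descriptions and not independent of that choice. Of 9 other genes of alternative respiration, 7 could be tested in roots and 5 in shoots. At 3 h 3 of 7 rose and 2 fell in roots, where 20.9% of all loci rose and 26.3% fell, and 2 of 5 rose and 2 fell in shoots (23.7% and 26.6% of all loci). NDB4, an outer NADH dehydrogenase, averaged 4.99 ± 2.49 CPM in citral roots (SD, n = 3) and 0.261 ± 0.187 CPM in ethanol roots (n = 2), a change of 3.27 ± 0.77 (limma adjusted p = 6.50e-04) that rests on few reads. At 0 h untreated and ethanol roots averaged 5.85 and 6.06 CPM, so the mean of citral roots at 3 h was not above those of 0 h. NDB1, an outer NADPH dehydrogenase, fell by 0.71 ± 0.26 in roots and by 0.49 ± 0.12 in shoots on the log2 scale (limma adjusted p = 0.0235 and 0.00138), and UCP2, an uncoupling protein, fell by 0.86 ± 0.20 and 0.74 ± 0.19. PTOX, the plastid terminal oxidase, rose by 0.66 ± 0.12 in roots and 0.65 ± 0.09 in shoots, and UCP1 by 0.67 ± 0.10 in shoots.

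All 15 genes of a list of mitochondrial stress genes, also chosen with earlier results of these data known, rose at 3 h in both organs. At 6 h 14 rose in both, against 13 at each of these times in shoots with the authors' own factors. Of all loci 20.9% rose in roots and 23.7% in shoots at 3 h, and 22.6% and 21.7% at 6 h. In roots 12 of the list rose at 1 h (21.7% of all loci), 12 at 12 h (17.3%) and 8 at 24 h (19.6%), and 0 fell. In shoots 5 rose and 1 fell at 1 h (12.5% and 7.84% of all loci), and 5 rose and 0 fell at 24 h (16.2% and 17.3%). At 12 h in shoots 2 rose and 2 fell, beside 18.8% and 19.2% of all loci, and the median of the list was -0.29. The median change of the list at 3 h was 3.34 in roots and 3.10 in shoots, against -0.13 and -0.07 for all loci. UGT74E2, a glucosyltransferase acting on indole-3-butyric acid, had 970.4, 814 and 782 CPM in citral roots at 3 h, against 27.3 and 23.9 CPM in ethanol roots, a change of 5.28 ± 0.21 (limma adjusted p = 3.49e-20). In shoots it had 1281, 817 and 1255 CPM with citral, against 18.9, 19.0 and 5.84 CPM with ethanol, a change of 6.47 ± 0.64 (limma adjusted p = 4.87e-09).

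Of the same list the cytochrome P450 gene CYP81D8 rose by 5.41 ± 0.37 in roots and 3.84 ± 0.41 in shoots at 3 h. The MATE efflux gene AT2G04050 rose by 5.37 ± 0.52 and AT2G41730, annotated with a calcium-binding site, by 4.42 ± 0.42 in roots. AT5G51440, a mitochondrial small heat shock protein, rose by 5.20 ± 0.61 and the auxin transporter gene ABCB4 by 4.64 ± 0.27 in shoots. At least 1 form of the motif was found in 10 of these 15 genes, against 1.60% of all genes. The list was taken from published roles and the motif was already known in front of several such genes, so this share is not independent of the choice.

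Among 11 regulators of the alternative pathway, 9 were tested in roots and 10 in shoots. In roots 7 rose and 1 fell at 1 h (21.7% and 21.6% of all loci), and in shoots 7 rose and 1 fell at 3 h (23.7% and 26.6%). ANAC053, a membrane-anchored NAC factor known to act under oxidative and proteasome stress, had 437, 462 and 401 CPM in citral roots at 1 h, against 95.6, 99.6 and 93.1 CPM in ethanol roots, a change of 2.33 ± 0.07 (limma adjusted p = 1.36e-26). At 3 h in shoots it had 287, 301 and 288 CPM with citral, against 18.1, 18.5 and 16.2 CPM with ethanol, a change of 4.15 ± 0.15 (limma adjusted p = 3.21e-21). WRKY40, known as a repressor of AOX1A, rose by 3.55 ± 0.21 in roots at 1 h and 1.61 ± 0.61 in shoots at 3 h, and WRKY63, known as an activator, by 2.29 ± 0.14 and 1.83 ± 0.55. WRKY40 was also higher in ethanol than in untreated plants at 0 h, by 3.60 ± 0.44 in roots and 3.10 ± 0.65 in shoots. It averaged 56.9 and 4.94 CPM there in roots. At 0 h 5 of the 9 regulators tested in roots were higher and 1 lower (14.6% and 11.5% of all loci). In shoots 3 of 10 were higher and 1 lower (9.31% and 13.2%). WRKY15 rose by 1.26 ± 0.07 in roots at 1 h. MYB29, a factor of glucosinolate synthesis also known to restrain AOX1A, fell by 2.71 ± 0.41 on the log2 scale in shoots at 3 h, with 2.68 ± 1.76 CPM with citral and 18.2 ± 3.73 CPM with ethanol (SD, n = 3 each).

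The cytochrome pathway is the route that the alternative branch bypasses. Of 29 nuclear genes for complexes I to V and cytochrome c, 22 fell and 1 rose in roots at 1 h (21.6% and 21.7% of all loci). Later counts in roots were mixed, with 6 higher and 7 lower at 3 h (20.9% and 26.3%) and 10 and 5 at 6 h (22.6% and 25.9%). At 12 h 4 rose and 5 fell in roots (17.3% and 18.8%), and at 24 h 11 and 5 (19.6% and 19.1%). In shoots 24 rose and 0 fell at 6 h (21.7% and 19.9% of all loci) and 19 and 0 at 12 h (18.8% and 19.2%). Shoots had 1 higher and 2 lower at 1 h (12.5% and 7.84%), 13 and 1 at 3 h (23.7% and 26.6%) and 7 and 5 at 24 h (16.2% and 17.3%). With the authors' own factors 16 rose at 6 h in shoots, and in roots 26 fell at 1 h with those factors and with total reads. The median change was -0.28 in roots at 1 h and 0.48 in shoots at 6 h, where the members' medians were 2.37 and 2.73, and in shoots at 12 h it was 0.35, beside 0.33 for the members. The cytochrome c gene CYTC-2 was the gene that rose in roots at 1 h, by 1.68 ± 0.12, and in shoots at 6 h it averaged 49.2 ± 11.5 CPM with citral and 7.43 ± 1.61 CPM with ethanol (SD, n = 3 each), a change of 2.72 ± 0.31 (limma adjusted p = 3.94e-08). CYTC-1, SDH1-1 of complex II and AT5G08680, an ATP synthase subunit, rose by 1.3 ± 0.12, 1.36 ± 0.14 and 0.96 ± 0.13 in shoots at 6 h. In roots at 1 h AT3G27240, a cytochrome c1 gene, fell by 0.51 ± 0.07, AT3G15640, a cytochrome c oxidase subunit, by 0.48 ± 0.10, and AT4G32470, a subunit of complex III, by 0.48 ± 0.08 on the log2 scale. All 6 shoot markers were lower at 6 h in shoots, and 1 of 6 was lower at 12 h (median -0.05). The part of marker and clock shifts in the counts of this list was not tested.

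**Figure D4:**
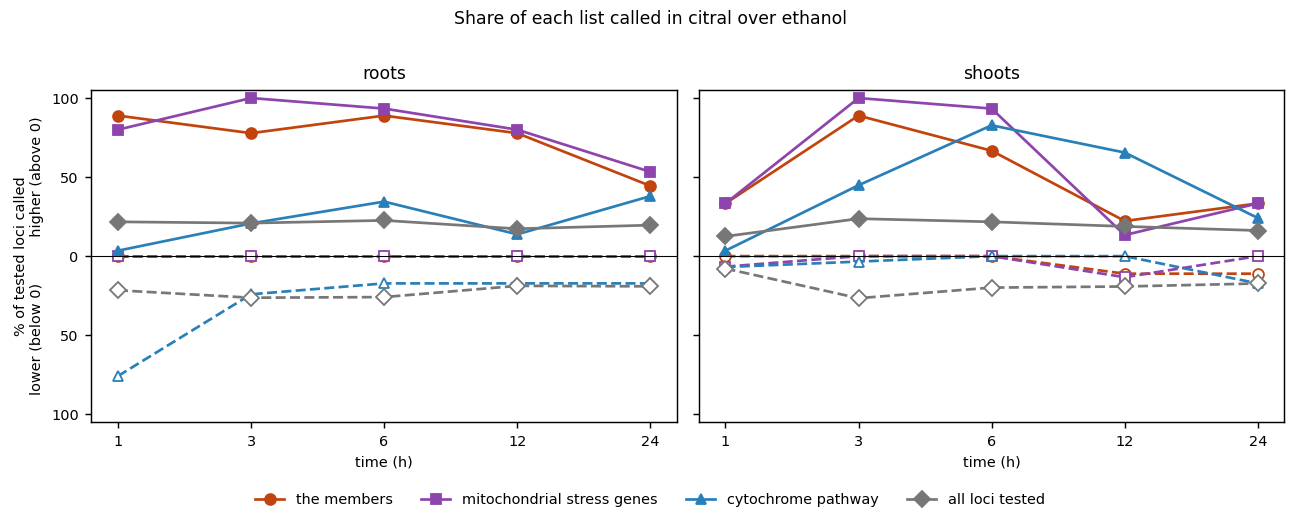
Share of the tested genes called higher (solid lines, above 0) and lower (dashed lines, below 0) in citral over ethanol, against time, in roots and shoots, for the members, the mitochondrial stress genes, the cytochrome pathway and all loci tested. In roots at 1 h 8 of 9 members were higher and 22 of 29 cytochrome pathway genes lower.

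The pattern of AOX1A over the 10 citral comparisons was set against that of 16009 loci with a mean of 5 CPM or more, members left out. The nearest by Pearson's r were AT4G20830, an FAD-binding berberine family gene (0.967), the aldehyde oxidase gene AO1 (0.950) and RHL41, also known as ZAT12, a zinc finger factor of light and oxidative stress (0.935). For NDB2 they were the DnaJ homologues J3 (0.974) and J2 (0.973) and the kinase gene MPK4 (0.971), and for OM66 CRF5 (0.932), BGLU28 (0.918) and EMB2745 (0.907). These are descriptions over 10 comparisons that share organs and libraries, and the 3 highest of 16009 loci are high by choice.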

How the data were processed

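Seedling RNA of roots and shoots was sequenced, with TruSeq RNA libraries (per the labels' protocols). The deposited values, whole numbers of 1 or more for 22122 loci in 72 libraries, were treated as a score. TMM scaling is named with it, per the file name. The submitters' processing notes name TAIR10 as build. Aligner, counting tool and strand setting were not given in the sources used here. Each column was matched to a sample by its title, and 0 were left unused.

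Values were taken as reads times 1 factor in each library (0.6678 to 1.3109), rounded, with lower values set to 1. The factor was fitted to how often each value up to 150 occurred. A factor over 1 skips some whole numbers, and 100% of these values fell on the numbers left. With a factor of 1 or less no number is skipped, so that check could not fail there. Dividing by the factor gave reads, and a value at the floor was taken as 0.5 read. The values are rounded, so no count model was used. In citral libraries 1 CPM stands for 1.58 to 3.62 reads. The variance between libraries of a group was at least 1.26 times the sampling noise over 72 pairs, with a median of 4.32, and 0 pairs were identical. It was highest, at 105 and 99.6, in the pairs of shoot ethanol 12 h replicate 2 with replicates 1 and 3.

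Tests were made with limma 3.58.1 in R 4.3.3, voom with library quality weights and a robust prior. TMM factors were computed anew, trimming 30% of log ratios and 5% of abundances. Each organ was fitted as 12 group means over 36 libraries, with loci at 1 CPM or more in at least 3 libraries (19545 in shoots, 20167 in roots), and both organs as 24 means over 72 libraries (21096 loci). The scripts were tested on simulated data. Clock distances used log2(CPM + 0.5). Named, by rule, were all members, up to 4 called genes per other list and organ with the largest change at the time with most calls, and the 3 loci most like AOX1A, OM66 and NDB2. The members and lists were chosen with earlier results of these data known, and the counts of the other lists under other scalings and without the shallow libraries were added after seeing the data. Sequences came from the RefSeq TAIR10.1 genome, in which all 10 members were found.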

Additional observations from a re-analysis of the deposited data

Results flagged for a closer look

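The citral response of 8 members differed between roots and shoots in the limma F test over 5 times, beside 63.1% of all loci tested. The adjusted p of AOX1A was 1.20e-05, with changes of 0.80 in roots and 2.69 in shoots at 24 h. For AOX1D it was 0.00496, with 2.49 in roots and -0.27 in shoots at 1 h. For NDA1 it was 7.38e-11, with 2.38 in roots and -0.96 in shoots at 12 h. For NDA2 it was 1.80e-06, with 0.59 in roots and 1.74 in shoots at 12 h. For NDB2 it was 1.79e-08, with 2.04 in roots and 3.46 in shoots at 3 h. For UPOX it was 3.53e-06, with 3.23 in roots and 0.56 in shoots at 12 h. For OM66 it was 1.25e-04, with 2.13 in roots and -1.05 in shoots at 1 h. For ANAC013 it was 6.12e-04, with 2.15 in roots and 0.56 in shoots at 1 h.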

How the results depend on the processing

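Over the 12 comparisons within organs, 62 of 108 tests of a member were called. Of these, 47 kept direction and call under all alternatives run, 15 lost the call under 1 or more and 0 reversed, while 16 of the 46 uncalled were called under 1 or more. The number of members called in shoots at 3 h was 8 and was 5 under limma-trend on log2(CPM + 0.5) and on log2(CPM + 0.1), which use no weights. At 0 h it was 2 in each organ, and 1 in each without library weights and under both limma-trend settings, and 1 in roots with the authors' own factors and with quantile normalization. The filters, total reads, the compared groups alone and leaving out the libraries under 0.5 M reads moved no count by over 1.5 times. NDA2 in untreated roots over untreated shoots reversed to 0.39 with total reads and no scaling factor. The cause of these moves was not tested.

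With each library left out in turn, the members called in roots ranged from 7 to 8 (1 h), from 7 to 8 (3 h), from 7 to 8 (6 h), from 7 to 7 (12 h), from 4 to 4 (24 h) and from 1 to 3 (0 h). In shoots the ranges were from 3 to 4, from 6 to 8, from 6 to 7, from 1 to 4, from 2 to 4 and from 2 to 2, in the same order. They stayed at 8 for untreated roots over shoots and for the organ difference. With no filter AOX1C passed in shoots at 3 h (1.64, limma adjusted p = 0.0253) and in roots at 1 h (1.65, 0.046) and 12 h (1.80, 0.0366), where its citral libraries were all at the floor. Scaling moved the share of higher calls by over 10 percentage points in some comparisons: in roots at 3 h 44.3% of calls were higher, and 26.8% with total reads, where the median of all loci was -0.36. No paired analysis was possible because the replicate numbers follow accession order and mark no shared plate or day. The other lists were recounted under 3 other scalings and without the shallow libraries, a choice made after seeing the data. Cytochrome pathway counts moved by up to 10 genes: with the authors' own factors 16 were higher in shoots at 6 h (24 with TMM) and 7 at 3 h (13 with TMM), and with total reads 16 were lower in roots at 3 h (7 with TMM). Counts of the other 3 pathway lists moved by at most 2 genes. AOX1C was at the floor in 48 of the 68 deeper libraries, AOX1D in 4 and NDA1 in 1, and the other 7 members in 0.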
